A study of Mus musculus with 9 samples.

Results

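The 10 Wnt ligand genes *Wnt2b*, *Wnt3*, *Wnt4*, *Wnt5a*, *Wnt6*, *Wnt7b*, *Wnt10a*, *Wnt10b*, *Wnt11* and *Wnt16* were examined in the skin of *Supt6*-KO mice. They were taken by gene identifier from a table of 17943 genes, and each of the 10 passed the filter on low counts. Skin RNA from 5 control and 4 *Supt6*-KO mice was sequenced, with day 10 after the last injection as the time of harvest. *Supt6* encodes SPT6, a histone chaperone that travels with elongating RNA polymerase II. Estimated counts per gene summed to between 29627341 and 30491197 in the controls and between 30597189 and 30967107 in the *Supt6*-KO mice.

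By the study's methods, *Supt6*-KO mice carried K14-CreERT together with *Supt6* fl/fl alleles and were injected with tamoxifen, whereas control mice were *Supt6* fl/fl without the Cre and were injected with corn oil. Both groups thus carried the floxed alleles, and the effects of the deletion, of the Cre and of tamoxifen cannot be told apart. The *K14* promoter is active in basal keratinocytes and in the outer root sheath of the follicle, so the deletion was directed to epithelial cells while whole skin was sequenced. The sample labels call the controls wild-type and the other group *Supt6* KO in the titles and *Supt6* knockdown under genotype. They give ear as the tissue, against dorsal skin in the methods. Of 7 cartilage genes looked up, 6 were above the floor of 3 counts, with a sum of 363 to 833 CPM in the controls and 66.2 to 81.1 CPM in the *Supt6*-KO mice, and only *Matn1* was at or under it. Of 10 trunk Hox genes looked up, *Hoxa9*, *Hoxb6* and *Hoxc9* had no entry. *Hoxb7*, *Hoxc8* and *Hoxc10* had at most 3 counts in every mouse. *Hoxa7* reached at most 0.111 CPM and *Hoxc6* at most 0.267 CPM in any mouse. In the controls *Hoxd8* averaged 10.6 ± 1.14 CPM and *Hoxd9* 4.39 ± 0.497 CPM (SD, n = 5). Which of the 2 sites was sampled was not tested further.

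Wnt proteins are secreted, lipid-modified growth factors. The acyl transferase Porcupine adds the lipid in the endoplasmic reticulum, and Wntless carries the ligand to the cell surface. There the ligand binds a Frizzled receptor together with Lrp5 or Lrp6, which stabilises β-catenin and switches on TCF/LEF target genes, or it acts through Ror, Ryk and the planar polarity proteins. In skin, Wnt signals are needed for follicle formation, drive the entry of resting follicles into growth, and maintain basal keratinocytes.

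Promoter sequence was available for 7 of the 10 ligand genes in the RefSeq set of GRCm38.p6, and *Wnt5a*, *Wnt7b* and *Wnt10a* had no entry. Each window runs from 250 bases before to 50 bases after the start of the transcript, 300 bases in all, and is written 5′ to 3′ along the transcript. The first 3 windows below belong to the ligands with the largest decreases among those with an entry, and the last 2 to the ligands that were higher in *Supt6*-KO skin. Capitals mark matches, on either strand, to CCAAT (so also ATTGG) and to the NF-κB consensus. That consensus is GGGRNWYYCC, where R is A or G, N any base, W A or T, and Y C or T. The second NF-κB match in *Wnt10b* lies on the opposite strand.
Wnt10b promoter, chr15:98778101-98778400, minus strand: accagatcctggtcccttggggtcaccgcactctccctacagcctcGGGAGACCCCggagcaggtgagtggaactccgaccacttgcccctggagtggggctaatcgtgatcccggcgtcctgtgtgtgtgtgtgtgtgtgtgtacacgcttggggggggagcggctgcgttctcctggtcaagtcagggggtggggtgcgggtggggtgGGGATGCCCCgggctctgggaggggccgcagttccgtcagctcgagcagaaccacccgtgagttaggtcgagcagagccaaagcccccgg
Wnt2b promoter, chr3:104961660-104961959, minus strand: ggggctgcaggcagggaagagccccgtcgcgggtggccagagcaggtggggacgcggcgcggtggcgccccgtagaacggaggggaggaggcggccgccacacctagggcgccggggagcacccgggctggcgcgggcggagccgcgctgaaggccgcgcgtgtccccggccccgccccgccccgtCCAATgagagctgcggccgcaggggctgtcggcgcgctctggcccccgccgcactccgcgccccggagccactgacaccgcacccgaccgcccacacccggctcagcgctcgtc
Wnt3 promoter, chr11:103773925-103774224, plus strand: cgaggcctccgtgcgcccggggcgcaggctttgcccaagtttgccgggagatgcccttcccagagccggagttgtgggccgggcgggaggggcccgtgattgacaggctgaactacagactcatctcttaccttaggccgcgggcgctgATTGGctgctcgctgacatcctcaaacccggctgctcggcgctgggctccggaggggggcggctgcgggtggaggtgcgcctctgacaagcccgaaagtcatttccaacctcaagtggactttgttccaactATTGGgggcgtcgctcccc
Wnt4 promoter, chr4:137277385-137277684, plus strand: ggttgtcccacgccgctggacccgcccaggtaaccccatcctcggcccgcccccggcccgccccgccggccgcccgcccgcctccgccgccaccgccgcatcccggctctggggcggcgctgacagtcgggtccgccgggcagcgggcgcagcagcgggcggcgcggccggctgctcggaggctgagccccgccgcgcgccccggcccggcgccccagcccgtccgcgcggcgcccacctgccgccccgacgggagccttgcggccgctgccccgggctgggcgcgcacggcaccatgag
Wnt16 promoter, chr6:22287977-22288276, plus strand: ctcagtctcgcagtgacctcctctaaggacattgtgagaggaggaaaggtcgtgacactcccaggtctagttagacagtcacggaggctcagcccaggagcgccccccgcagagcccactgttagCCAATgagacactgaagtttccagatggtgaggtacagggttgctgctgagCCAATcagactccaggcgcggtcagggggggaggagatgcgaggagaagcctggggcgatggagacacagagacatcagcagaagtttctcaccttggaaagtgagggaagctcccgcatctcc

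These windows were rich in G and C. The GC content was 66.3% for *Wnt10b*, 79.7% for *Wnt2b*, 65.7% for *Wnt3*, 84.3% for *Wnt4* and 58.0% for *Wnt16*, against a median of 52.7% over the 32851 promoter windows of the set. CpG dinucleotides numbered 51 in the *Wnt4* window and 10 in that of *Wnt16*, against a median of 7. The *Wnt10b* window held 2 matches to the NF-κB consensus, which start at -204 and -40 from the transcript start, and 4.5% of all windows held at least 1. CCAAT was matched once in *Wnt2b* (at -64), and 2 matches each were found in *Wnt3* (at -101 and 32) and *Wnt16* (at -125 and -74), and 37.4% of all windows held one. TATAAA, present in 13.6% of windows, was matched only in the first of the 2 windows of *Wnt11*, at -29, and that window also held the only TCF/LEF match, ATCAAAG at -51, of a pair of words (CTTTGAA or CTTTGAT, either strand) present in 8.7% of windows. No ligand window held the AP-1 word TGANTCA, present in 7.8%, and none of these 5 motifs was matched in the windows of *Wnt4* and *Wnt6*. The short word CACCC, present in 57.5% of windows, was also searched. It had 5 matches in *Wnt10b*, 4 each in *Wnt2b* and *Wnt6*, 1 in *Wnt3*, and 0 in *Wnt4* and *Wnt16*. The 2 windows of *Wnt11* held 2 and 1. These are matches of letters and were not tested for binding.

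Counts were scaled between libraries by edgeR's TMM method and are given as CPM, counts scaled to a fixed library size. *Supt6* itself stood at 74.5, 56.6, 63.6, 91.1 and 96.7 CPM in the controls and at 28.6, 24.1, 21.9 and 28.4 CPM in the *Supt6*-KO mice. All 4 *Supt6*-KO mice lay beneath the lowest control. The groups differed by -1.57 on the log2 scale with a standard error (SE) of 0.18, and the quasi-likelihood test of edgeR gave an adjusted p of 1.3e-05 (Benjamini-Hochberg, over the 16426 genes tested). The log2 fold change was -2.26 with library totals and -0.71, short of 2-fold, with removal of a trend with gene length.

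Some libraries stood apart from the rest of their group. Control 5 correlated with the other controls at 0.937 to 0.969 (Pearson's r of log2 CPM across genes) and *Supt6*-KO 4 with the other *Supt6*-KO mice at 0.953 to 0.965, whereas the remaining pairs within groups lay between 0.980 and 0.989. The groups also differed in composition, with TMM factors of 1.20 to 1.31 in the controls and 0.674 to 0.910 in the *Supt6*-KO mice. Over all genes tested, the median log2 fold change stood at -0.07 after TMM and at -0.76 when libraries were scaled by their totals alone, a shift that applies to every fold change below.

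Of the 10 ligands, 5 were lower in *Supt6*-KO skin (*Wnt2b*, *Wnt3*, *Wnt7b*, *Wnt10b* and *Wnt11*) and 1 was higher (*Wnt16*), at an adjusted p under 0.05 and a change of at least 2-fold. The same call was made for 24.9% of all genes tested in the lower direction and for 20.9% in the higher direction. *Wnt4* passed the adjusted p with a smaller rise, and *Wnt5a*, *Wnt6* and *Wnt10a* did not pass it. All 4 *Supt6*-KO mice lay below all 5 controls for 6 ligands and above them for 1, and such separation was seen for 31.8% and 28.9% of all genes. The median log2 fold change of the 10 ligands was -0.97, against -0.07 for all genes.

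At the adjusted p alone, 5 ligands were lower and 2 higher, beside 36.8% and 34.1% of all genes. With library totals in place of TMM, 7 ligands were called lower, *Wnt6* and *Wnt10a* joining the 5, and 0 higher, beside 41.4% and 8.95% of all genes. When a trend with gene length was removed from each library, 5 ligands were lower and 2 higher (*Wnt4* and *Wnt5a*), beside 19.5% and 18.8%. The 5 ligands named as lower had this call under each of these scalings.

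Among the ligands known chiefly for β-catenin signaling, *Wnt7b*, *Wnt3*, *Wnt10b* and *Wnt2b* fell, while *Wnt6* and *Wnt10a* did not pass the test. *Wnt7b*, a ligand of the epidermis and growing follicle (NCBI gene 22422, chr15:85535437-85581821, minus strand, GRCm38), stood at 112, 112, 107, 122 and 106 CPM in the controls and at 52.9, 33.8, 25.6 and 25.4 CPM in the *Supt6*-KO mice. The highest *Supt6*-KO mouse, the first, was thus below the lowest control, and the controls differed little among themselves. The group means were 112 ± 6.44 CPM (SD, n = 5) and 34.4 ± 12.9 CPM (SD, n = 4), 30.7% of the control level. This is a log2 fold change of -1.70 with an SE of 0.21 (adjusted p = 2.4e-05, edgeR).

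*Wnt3*, made in the follicle epithelium and able to promote hair growth (NCBI gene 22415, chr11:103774175-103818021, plus strand), was at 22.2, 21.2, 21.0, 16.6 and 19.2 CPM in the controls and at 9.90, 4.13, 2.38 and 3.95 CPM in the *Supt6*-KO mice. The first *Supt6*-KO mouse was again the highest of its group and still below every control. The level was 25.4% of the control mean, with a log2 fold change of -1.97 (SE 0.34, adjusted p = 0.00029, edgeR). Without that mouse the log2 fold change was -2.52. *Wnt9b* lies on the opposite strand and overlaps *Wnt3* by 1098 bases, and since the use of strand in counting is not stated, their shared reads cannot be told apart. *Wnt9b* had at most 14 counts in a control and 3 in a *Supt6*-KO mouse.

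*Wnt10b*, an early ligand of the hair placode and of follicle growth (NCBI gene 22410, chr15:98770712-98778206, minus strand), is the gene whose promoter window held the pair of NF-κB matches shown above. It stood at 4.60, 4.57, 7.72, 5.52 and 5.09 CPM in the controls and at 1.46, 1.54, 1.37 and 0.467 CPM in the *Supt6*-KO mice. The third control was the highest, and *Supt6*-KO 4, with 13 counts, the lowest. With all mice it had the largest decrease of the 10 ligands after TMM, though *Wnt3* or *Wnt2b* fell further when *Supt6*-KO 1, *Supt6*-KO 3 or control 3 was left out. Its log2 fold change was -2.20 (SE 0.33, adjusted p = 9.6e-05, edgeR) and -1.92 without *Supt6*-KO 4.

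*Wnt2b*, which also signals through β-catenin (NCBI gene 22414, chr3:104944805-104961709, minus strand), was the least abundant ligand, with estimated counts of 29, 29, 20, 41 and 68 in control skin and of 7, 3, 9 and 3 in *Supt6*-KO skin. The values of *Supt6*-KO 2 and 4 are at the floor of 3 counts, so the depth gives little precision there, and the floor covers counting error only. The CPM means were 0.993 ± 0.458 (SD, n = 5) and 0.239 ± 0.140 (SD, n = 4), with a log2 fold change of -2.06 (SE 0.47, adjusted p = 0.002, edgeR). Without both control 5 and *Supt6*-KO 4 it was -1.50. *Wnt2b* shares 4524 bases with *St7l* on the opposite strand, which had up to 817 counts in a control and 905 in a *Supt6*-KO mouse, and reads that both genes share cannot be told apart.

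*Wnt6* and *Wnt10a* are neighbours on chromosome 1, on the same strand and 6696 bases apart. *Wnt10a*, a ligand whose loss in people causes ectodermal dysplasia with defects of hair, teeth and nails (NCBI gene 22409, chr1:74792019-74804176), stood at 26.7, 31.4, 26.5, 31.9 and 24.6 CPM in the controls and at 26.7, 15.0, 14.4 and 27.4 CPM in the *Supt6*-KO mice. *Supt6*-KO 1 and 4 lay within the control range and *Supt6*-KO 2 and 3 below it. The log2 fold change was -0.43 (SE 0.21) and did not pass the test (adjusted p = 0.082, edgeR). It was -0.60 (adjusted p = 0.017) without *Supt6*-KO 4, but -0.32 (adjusted p = 0.19) without *Supt6*-KO 2 and -0.30 (adjusted p = 0.2) without *Supt6*-KO 3.

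*Wnt6*, an epidermal ligand (NCBI gene 22420, chr1:74754342-74785322), was at 4.07, 4.46, 3.41, 4.41 and 3.21 CPM in the controls and at 3.09, 2.11, 3.16 and 3.09 CPM in the *Supt6*-KO mice. The groups did not overlap, but the lowest control and the highest *Supt6*-KO mouse lay close together. The log2 fold change of -0.45 (SE 0.19) missed the threshold (adjusted p = 0.054, edgeR) and passed it under 7 of the alternatives tried.

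*Wnt4* and *Wnt16* had levels opposite to those of the ligands that fell. *Wnt4*, expressed in the epidermis and able to act with or without β-catenin (NCBI gene 22417, chr4:137277635-137299501, plus strand), stood at 79.8, 86.6, 79.0, 93.8 and 68.5 CPM in the controls and at 153, 124, 130 and 141 CPM in the *Supt6*-KO mice. Every *Supt6*-KO mouse was above every control. The log2 fold change was 0.75 (SE 0.12, adjusted p = 0.00017, edgeR) after TMM and 0.07 (adjusted p = 0.7) with library totals, where the median of all genes was -0.76. Estimated counts of *Wnt4* were 2984, 3162, 2855, 3467 and 2692 in the controls and 3665, 2592, 2841 and 3933 in the *Supt6*-KO mice, so before scaling the groups overlapped. The rise of *Wnt4* was thus measured relative to the other genes, and was not detected as a rise in its share of the library.

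*Wnt16* (NCBI gene 93735, chr6:22288178-22298522, plus strand), a ligand known for its part in bone and found in the follicle and basal epidermis, was at 1.69, 1.83, 1.72, 1.57 and 2.27 CPM in the controls and at 7.44, 5.66, 3.98 and 1.44 CPM in the *Supt6*-KO mice. In 3 *Supt6*-KO mice it exceeded every control, while *Supt6*-KO 4 lay below all of them. The log2 fold change was 1.35 (SE 0.37, adjusted p = 0.0063, edgeR) with all mice and 1.64 without *Supt6*-KO 4. It was 0.60 (adjusted p = 0.14) with library totals and 0.99, just under 2-fold, when a trend with gene length was removed.

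*Wnt5a* and *Wnt11* are best known for signaling without β-catenin, in cell polarity and movement. *Wnt11* (NCBI gene 22411, chr7:98835084-98854747, plus strand) stood at 6.47, 4.24, 5.07, 4.41 and 4.38 CPM in the controls and at 2.30, 1.54, 1.37 and 1.80 CPM in the *Supt6*-KO mice. All *Supt6*-KO mice were below all controls, with a log2 fold change of -1.48 (SE 0.22, adjusted p = 8.6e-05, edgeR).

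*Wnt5a*, expressed in dermal as well as epithelial cells (NCBI gene 22418, chr14:28504543-28527448, plus strand), was at 10.2, 6.43, 7.81, 7.25 and 10.3 CPM in the controls and at 6.64, 7.63, 10.8 and 17.4 CPM in the *Supt6*-KO mice. *Supt6*-KO 4 was the highest of all mice, *Supt6*-KO 3 was also above every control, and *Supt6*-KO 1 and 2 lay within the control range. The log2 fold change was 0.34 (SE 0.27, adjusted p = 0.28, edgeR) after TMM, -0.31 with library totals, -0.01 without *Supt6*-KO 4 and 1.14 (adjusted p = 0.0019) with the length trend removed. No direction can be given for this ligand.

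**Figure D1:**
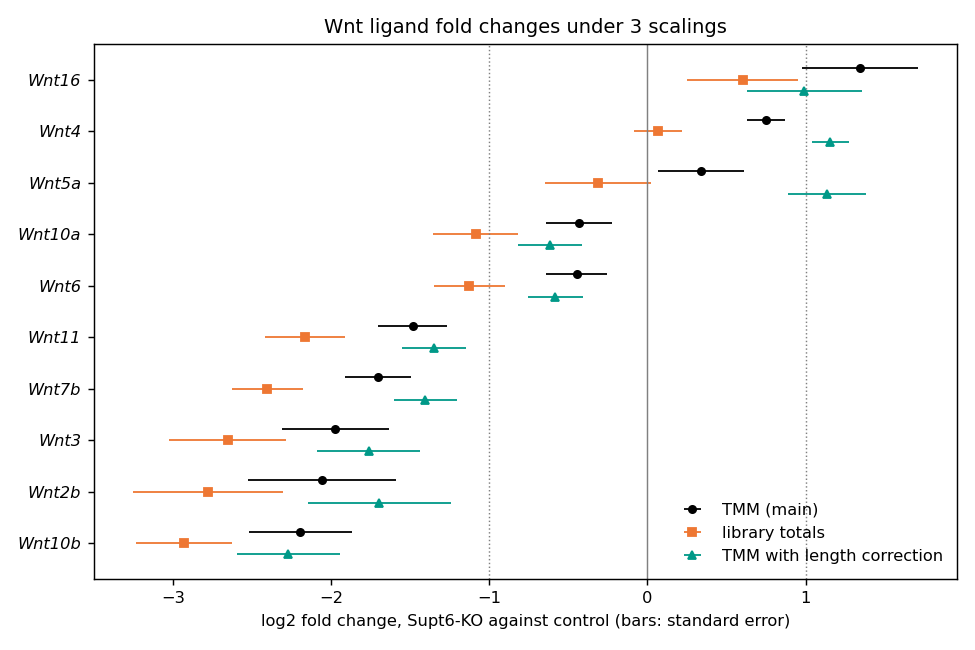
Log2 fold change of each Wnt ligand in *Supt6*-KO against control skin (horizontal axis, bars are standard errors) from edgeR after TMM (black), with library totals (orange) and after TMM with removal of a trend with gene length (green). The dotted lines mark a 2-fold change. *Wnt10b*, *Wnt2b*, *Wnt3*, *Wnt7b* and *Wnt11* lie left of -1 under each of the 3, whereas *Wnt5a* changes side and *Wnt4* moves from 0.07 to 1.16.

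To compare the ligands with one another, counts were divided by gene length and expressed as TPM, a share of transcripts. In the controls the order of mean TPM was *Wnt7b* (57.9), *Wnt4* (36.5), *Wnt10a* (27.0), *Wnt3* (11.3), *Wnt10b* (4.53), *Wnt6* (3.51), *Wnt11* (3.04), *Wnt5a* (2.43), *Wnt16* (2.15) and *Wnt2b* (0.502). The ranges of neighbours in this order were apart for the first 5 ligands and between *Wnt16* and *Wnt2b*, and they overlapped from *Wnt10b* to *Wnt16*. In the *Supt6*-KO mice the order was *Wnt4* (22.9), *Wnt10a* (7.82), *Wnt7b* (6.43), *Wnt16* (1.84), *Wnt5a* (1.19), *Wnt3* (1.07), *Wnt6* (0.965), *Wnt11* (0.405), *Wnt10b* (0.336) and *Wnt2b* (0.0395). There *Wnt4* stood apart from *Wnt10a*, *Wnt7b* from *Wnt16*, and *Wnt10b* from *Wnt2b*, and the other neighbours overlapped. TPM levels serve for the order within a group and were not compared between groups.

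The make-up of the ligand signal, which does not depend on the scaling between libraries, differed between the groups in the shares of *Wnt7b* and *Wnt4*. Estimated counts of *Wnt4* overlapped between the groups, while the summed counts of the 10 ligands were lower in *Supt6*-KO skin. After TMM, *Wnt4* averaged 81.5 CPM in the controls and 137 CPM in the *Supt6*-KO mice. What part of the larger *Wnt4* share goes with *Wnt4* itself, and what part with the smaller sum, thus depends on the scaling. *Wnt7b* gave 38.8% ± 1.01 (SD, n = 5) of the summed TPM of the 10 ligands in the controls and 15.1% ± 3.49 (SD, n = 4) in the *Supt6*-KO mice. *Wnt4* gave 24.5% ± 1.35 and 53.9% ± 4.44, and its highest share in a control, 26.2%, lay far below its lowest in a *Supt6*-KO mouse, 48.0%. The shares of *Wnt3* (7.61% and 2.35%), *Wnt10b* (3.07% and 0.887%) and *Wnt11* (2.05% and 0.931%) were also below the control range in every *Supt6*-KO mouse. *Wnt10a* gave 18.2% ± 1.10 against 17.1% ± 4.16, with overlapping ranges.

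Per mouse, the ratio of *Wnt7b* to *Wnt4* counts was 1.41, 1.30, 1.35, 1.31 and 1.55 in the controls and 0.346, 0.272, 0.197 and 0.180 in the *Supt6*-KO mice. *Wnt7b* counts exceeded those of *Wnt4* in every control and in no *Supt6*-KO mouse. The ligands together summed to 267 ± 16.1 CPM (SD, n = 5) in the controls and 219 ± 32.8 CPM (SD, n = 4) in the *Supt6*-KO mice after TMM. Before scaling, in libraries of similar totals, they summed to 9950 ± 489 and 5203 ± 1214 estimated counts.

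**Figure D2:**
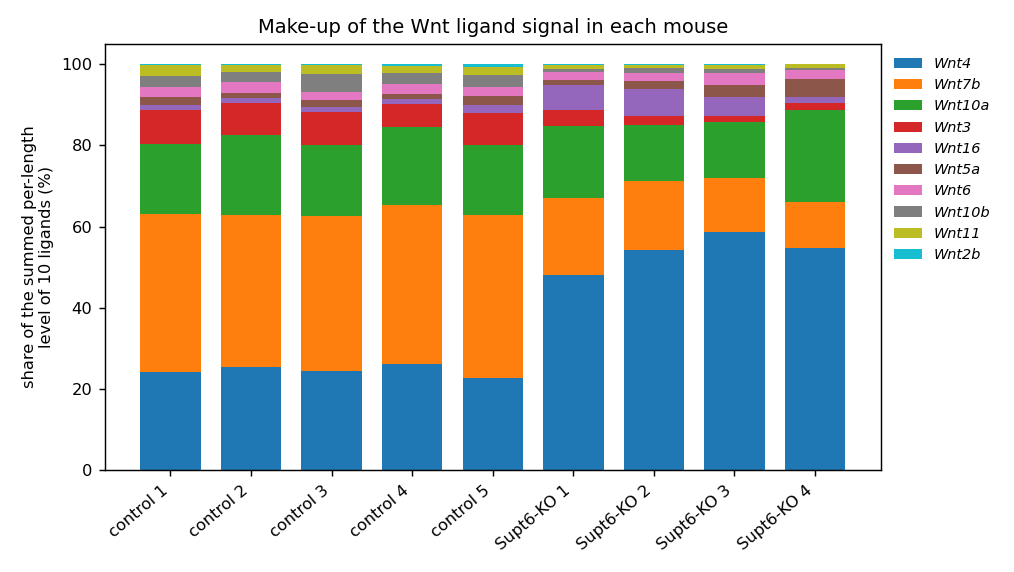
Share of each ligand in the summed per-length level of the 10 ligands (%), stacked for each of the 9 mice. *Wnt4* (bottom, blue) takes 22.6 to 26.2% in the controls and 48.0 to 58.7% in the *Supt6*-KO mice, and *Wnt7b* (orange) 37.6 to 40.2% and 11.3 to 19.0%.

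The other 9 mouse Wnt genes in the table averaged at most 5.74 CPM in the controls. *Wnt1*, *Wnt8a* and *Wnt8b* had at most 3 counts in every mouse and were not tested, which leaves 6. Of these, *Wnt5b*, a relative of *Wnt5a*, was lower, at 5.74 ± 0.671 CPM (SD, n = 5) in the controls and 2.66 ± 0.617 CPM (SD, n = 4) in the *Supt6*-KO mice, with a log2 fold change of -1.11 (adjusted p = 0.00036, edgeR), and of -0.98, short of 2-fold, without *Supt6*-KO 4. *Wnt7a* was called higher, with a log2 fold change of 1.52 (adjusted p = 0.048), but the groups overlapped at means of 0.219 and 0.620 CPM. The call rested on *Supt6*-KO 4 (1.62 CPM, 45 counts), and without it the log2 fold change was 0.37 (adjusted p = 0.52, edgeR). The call was also lost with library totals (adjusted p = 0.25), upper-quartile factors (0.062), a replicate block (0.14), any control left out (0.051 to 0.096) or *Supt6*-KO 3 left out (0.064). *Wnt3a* stood at 5.41 ± 0.705 CPM and 5.54 ± 1.59 CPM. The median log2 fold change of the 6 was -0.58.

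A further list held the genes that lipidate, export and inactivate Wnt proteins. Of its 11 genes, 5 were called higher (background 20.9%) and 2 lower (24.9%), with a median log2 fold change of 0.83. The 5 were the retromer subunits *Vps29* (log2 fold change 1.93), *Vps26a* (1.04) and *Vps35* (1.02), which recycle Wntless, and the cargo receptors *Tmed2* (1.71) and *Tmed5* (1.27). These genes serve the transport of many proteins, and with library totals 1 gene of the list was called higher and 3 lower, beside 8.95% and 41.4% of all genes, with a median of 0.10. The 2 that were lower inactivate Wnt proteins outside the cell, *Trabd2b* (-2.59) and the deacylase *Notum* (-1.46). *Porcn*, which encodes Porcupine, passed the adjusted p at 0.83 (adjusted p = 0.0037, edgeR) with overlapping groups. *Wls*, which encodes Wntless, was at 202 ± 16.8 CPM and 162 ± 13.3 CPM, with a log2 fold change of -0.32 (adjusted p = 0.025, edgeR). *Tmed2* was the most abundant of the list per length.

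Of 16 receptor genes, 9 were lower and 0 higher at the same call, beside 24.9% and 20.9% of all genes, with a median log2 fold change of -1.47. With library totals 13 were lower, beside 41.4%. *Lrp5*, the co-receptor, stood at 102 ± 22.9 CPM and 16.4 ± 5.92 CPM (log2 fold change -2.64, adjusted p = 5.6e-06, edgeR), and *Fzd4*, a Frizzled receptor, at 12.3 ± 2.97 CPM and 1.97 ± 0.521 CPM (-2.64). *Ryk*, the most abundant receptor gene per length, had a log2 fold change of -0.02 (adjusted p = 0.9). Of the 9 genes for R-spondins, their Lgr receptors and the ubiquitin ligases Znrf3 and Rnf43, which set the number of Wnt receptors at the surface, 7 were lower and 0 higher (background 24.9% and 20.9%), with a median of -1.54. *Lgr6* fell by 2.17 and *Znrf3* by 1.71 on the log2 scale, and *Lgr4*, the most abundant per length, by 0.35.

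Secreted antagonists bind Wnt proteins or their co-receptors. Of 12, 10 were tested, 7 were lower and 1 was higher (background 24.9% and 20.9%), with a median log2 fold change of -2.02. *Wif1*, which binds Wnt proteins directly and was the most abundant per length, stood at 495 ± 104 CPM (SD, n = 5) and 85.6 ± 5.03 CPM (SD, n = 4), and *Frzb*, a secreted Frizzled-related protein, had a log2 fold change of -3.15. *Sostdc1*, an inhibitor of both Wnt and BMP signals, was the exception, at 24.5 ± 4.98 CPM and 136 ± 44.6 CPM (log2 fold change 2.47, adjusted p = 4.2e-06, edgeR).

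Of 16 β-catenin target genes, 15 were tested, 11 were lower and 0 higher (background 24.9% and 20.9%), with a median log2 fold change of -1.54. *Lef1*, a transcription factor of the pathway, was at 3.91 ± 2.24 CPM and 0.341 ± 0.144 CPM (log2 fold change -3.51), and *Nkd2*, a feedback inhibitor, at 24.7 ± 3.91 CPM and 3.10 ± 0.565 CPM (-2.99). *Myc*, the most abundant per length and a target of many pathways, passed the adjusted p with -0.46. The list shares *Lgr5*, *Lgr6*, *Znrf3*, *Rnf43*, *Notum* and *Dkk4* with the lists above, so the counts are not separate. Of 16 planar polarity genes, 7 were lower and 0 higher (background 24.9% and 20.9%), with a median of -0.81, and with library totals 11 were lower (background 41.4%). *Fzd3*, *Fzd6*, *Ror2* and *Ptk7* are also in the receptor list, and *Ror2* was called lower in both. The cadherins *Celsr1* (-2.76) and *Celsr2* (-2.51) had the largest decreases, and *Daam1*, the most abundant per length, had -0.17 (adjusted p = 0.17, edgeR).

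Levels in whole skin follow both the number of cells of a type and the RNA per cell, which cannot be told apart here, and several marker lists moved with the groups. Hair matrix and shaft markers summed to 1735, 176, 632, 356 and 26.2 CPM in the controls and to 7.35, 5.57, 5.17 and 4.89 CPM in the *Supt6*-KO mice, with 10 of 10 measured genes lower (background 24.9%) and *Krt71* the most abundant per length. Between control 1 and control 5, the highest and the lowest in this sum, *Wnt7b* was at 112 and 106 CPM, *Wnt3* at 22.2 and 19.2 CPM, *Wnt10b* at 4.60 and 5.09 CPM, *Wnt11* at 6.47 and 4.38 CPM and *Wnt2b* at 0.776 and 1.73 CPM. Control 5 also stood apart from its group and had the highest dermal papilla and fibroblast sums, so these mice differ in more than hair matrix markers. Follicle stem cell markers summed to between 2216 and 2956 CPM in the controls and between 331 and 590 CPM in the *Supt6*-KO mice, with 5 of 6 lower and *Krt15* the most abundant per length. *Krt15* alone averaged 2303 and 367 CPM, most of these sums, and it is also in the basal keratinocyte list below, so the 2 lists are not separate. Dermal papilla markers summed to 47.2 to 99.1 CPM and 13.9 to 19.2 CPM, with 5 of 6 lower and *Corin* the most abundant per length. *Lgr5* of the stem cell list and *Rspo3* of the dermal papilla list were also counted with the R-spondin genes above, so these counts are not separate. Whether fewer follicle cells account for part of the lower ligand levels was not tested.

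Basal keratinocyte markers, with *Krt14* the most abundant per length, summed to between 11640 and 13310 CPM in the controls and to 8402, 5801, 7014 and 14100 CPM in the *Supt6*-KO mice. Of the 7, 4 were lower (*Krt15*, *Itgb4*, *Col17a1* and *Trp63*), beside 24.9% of all genes. The high sum of *Supt6*-KO 4 came from *Krt14*, which reached 9613 CPM there against at most 3809 CPM in a control. Each of the other 6 basal markers was below every control in all 4 *Supt6*-KO mice, a separation seen for 31.8% of all genes. Suprabasal markers, with *Krtdap* the most abundant per length, summed to between 20090 and 21930 CPM in the controls and to 42690, 41060, 40200 and 20560 CPM in the *Supt6*-KO mice, with 3 of 6 higher (*Krt1*, *Krtdap* and *Ivl*; background 20.9%). The same 3 *Supt6*-KO mice were those with *Wnt16* above every control. *Supt6*-KO 4 stood apart from its group across all genes, and a link between *Wnt16* and these markers was not tested. Fibroblast markers, with *Dcn* the most abundant per length, summed to between 2928 and 10540 CPM in the controls, with control 5 the highest, and to between 1948 and 3781 CPM in the *Supt6*-KO mice, with 2 of 6 lower (*Col1a1* and *Col1a2*), near the background of 24.9%, and 5 of 6 with library totals (background 41.4%). Neutrophil markers, with *S100a8* the most abundant per length, summed to 24.4 to 55.0 CPM in the controls and to 4585, 5186, 6472 and 2532 CPM in the *Supt6*-KO mice, with 5 of 6 higher (background 20.9%). *S100a8* and *S100a9*, which inflamed keratinocytes also express, made up nearly all of this sum in the *Supt6*-KO mice, with means of 1919 and 2715 CPM, while *Csf3r* went from 0.496 to 8.47 CPM and *Cxcr2* from 6.00 to 13.4 CPM. The part of these cells in the ligand levels was not tested.

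**Figure D3:**
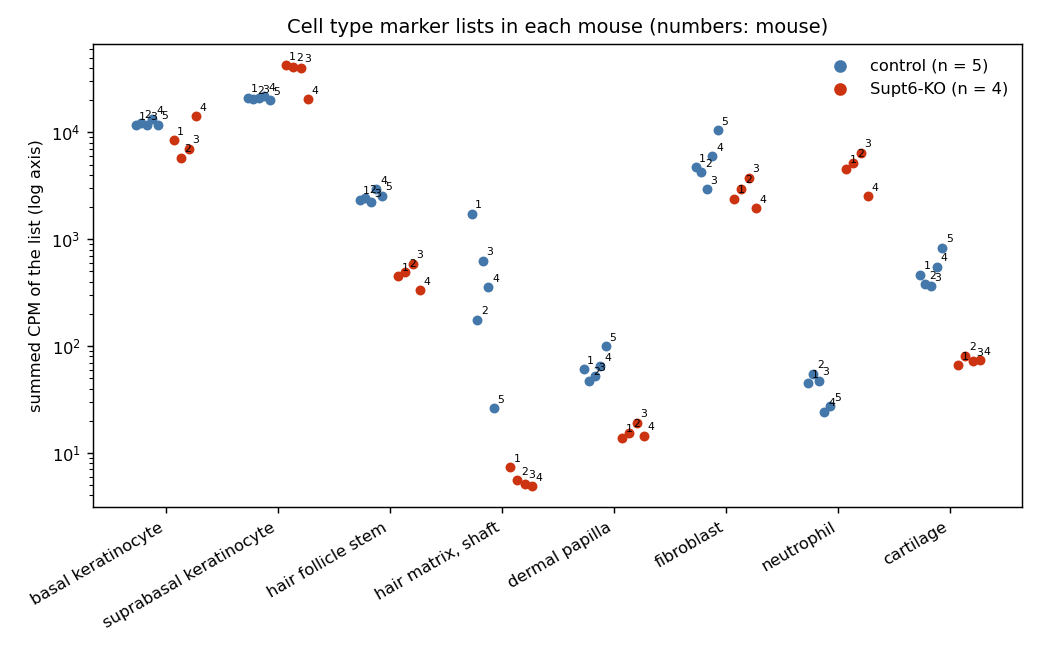
Summed CPM of 8 lists of cell type markers on a log axis, 1 point per mouse labelled with its number (blue, controls; red, *Supt6*-KO mice). Hair matrix and shaft markers range from 26.2 to 1735 CPM among the controls, and *Supt6*-KO 4 differs from its group in the basal (14100 CPM) and suprabasal (20560 CPM) lists.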

How the data were processed

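RNA-Seq libraries of mouse skin (5 control, 4 *Supt6*-KO) were grouped by the sample labels. The authors deposited estimated counts per gene, not normalised between mice, and TPM values for 6 of the 9 libraries. The submitters' processing notes name HISAT, Bowtie2 2.3.4.3, RSEM 1.3.1 and DESeq2 1.4.5 with an mm10 genome, and the annotation release is not given in the sources used here. Of 17943 rows, 17917 were matched to RefSeq genes of GRCm38, by identifier or symbol. Of the estimated counts, 9.0% were not whole (tolerance 1e-09), and all were rounded.

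Genes with a sum of at least 10 counts over the 9 mice (16426) were tested with edgeR 4.0.16 (R 4.3.3, quasi-likelihood test, TMM, no covariates) and Benjamini-Hochberg adjustment over all of them. A gene was called at an adjusted p under 0.05 and at least 2-fold. The replicates are separate mice, and the p-values measure the spread between these libraries only. The standard error is the absolute log2 fold change divided by the square root of F. TPM was recomputed for all 9 mice from lengths derived from the deposited TPM, and the 5th to 95th percentile of recomputed over deposited TPM was 0.983 to 1.023. The fits were tested on simulated data.

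The ligands and lists were chosen with earlier results of these data known. Named are the 10 ligands and *Supt6*, and for the 3 most abundant ligands the 3 genes most like each. Of each pathway list, the most abundant gene per length is named. Every called gene of such a list is named where there are at most 5. Otherwise up to 2 in each direction with the largest change and at least 1 CPM are named. *Vps26a*, *Vps35*, *Tmed5*, *Porcn*, *Wls*, *Wnt3a*, the genes shared between lists and the marker genes of the tissue check and of the cell type sums were named after their values were seen. Scaling by library totals or upper quartiles, DESeq2 1.42.0 and other filters were tried as alternatives, as were the removal of the 50 most abundant genes, removal of a lowess trend with gene length (span 0.3), a replicate block, each mouse left out, and shares of counts in place of TPM. The removal of both control 5 and *Supt6*-KO 4 was added after seeing the data. Deviations from the group means correlated at -0.01 to 0.20 between same-numbered mice (4 pairs, mean 0.10). Between differently numbered mice they correlated at -0.21 to 0.24 (16 pairs, mean -0.02). The ranges overlap, and 4 pairs are too few to decide whether the mice were paired.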

Additional observations from a re-analysis of the deposited data

Results flagged for a closer look

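Among groups of 4 or 5 mice, a value was picked out when its gap to the nearest other mouse took up most of the group's range (Dixon's 95% limit). Of 70 groups examined, 5 held such a mouse, and chance alone picks out about 1 group in 20, here 3.5.

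*Wnt6* was at 2.11 CPM in *Supt6*-KO 2, against a group median of 3.09 CPM. *Wnt10b* was at 0.467 CPM in *Supt6*-KO 4, against a median of 1.42 CPM. The summed CPM of the other 9 Wnt genes was 14.7 in *Supt6*-KO 4, against a median of 10.2. The secreted antagonists summed to 1108 CPM in control 5, against a median of 815 CPM. The suprabasal markers summed to 20560 CPM in *Supt6*-KO 4, against a median of 40630 CPM. Of the 5 values, 3 came from *Supt6*-KO 4 and 1 from control 5, the libraries that stood apart from their groups.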

How the results depend on the processing

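Over the 10 ligands and the alternatives that gave a value, 159 results kept their direction and their side of the adjusted p of 0.05, 16 gained it (7 for *Wnt6*, 8 for *Wnt10a*, 1 for *Wnt5a*), 2 lost it (*Wnt4* and *Wnt16* with library totals) and 2 changed sign, both for *Wnt5a* (-0.31 with library totals and -0.013 without *Supt6*-KO 4, the lowest with a mouse left out, of a range up to 0.51). Library totals gave 1470 genes higher and 6802 lower in place of 3427 and 4088, 0 ligands higher and 7 lower. They also moved the other ligands to 0 higher and 3 lower, the acylation and release genes to 1 higher and the planar polarity genes to 11 lower. Upper-quartile factors gave 0 and 3 higher in the first 2 of these lists. Removal of the length trend gave 2 ligands higher (*Wnt4* and *Wnt5a*, and no longer *Wnt16*), and *Supt6* at -0.71, short of 2-fold. With each mouse left out in turn, 3248 to 3476 genes were higher and 3845 to 4204 lower, 1 ligand was higher and 5 were lower, and *Supt6* lay between -1.66 and -1.47. With the replicate block, *Wnt10a* reached -0.54 (adjusted p = 0.043, edgeR), short of 2-fold, none of the 10 ligands changed its call, and of the other Wnt genes *Wnt7a* lost its call (log2 fold change 1.32, adjusted p = 0.14). Shares of counts without division by length put *Wnt4* at 30.4% in the controls and 63.1% in the *Supt6*-KO mice. A gene needs more than 3 counts in a library to stand above the floor, which limits *Wnt2b*. With a filter of at least 10 counts in every library, *Wnt2b* was not tested and 4 ligands were lower. The causes of these shifts were not tested.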

Other observations

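Genes with levels most like those of the 3 most abundant ligands were sought by Pearson's r of log2 CPM over the 9 mice, among 13564 genes. The points share the libraries and the difference between the groups, so r is given as a description, with the r of deviations from the group means in brackets. *Wnt7b* was most like *Mgll* (0.999 [0.994]), which encodes monoglyceride lipase, *Fa2h* (0.997 [0.974]), which encodes a fatty acid hydroxylase, and the transcription factor gene *Pou3f1* (0.996 [0.961]). *Mgll* averaged 646 CPM in the controls and 97.4 CPM in the *Supt6*-KO mice, *Fa2h* 579 and 47.3 CPM, and *Pou3f1* 75.0 and 30.1 CPM. *Wnt4* was most like *Eif6* (0.986 [0.873]), a translation factor gene, *Zbtb25* (0.985 [0.862]) and *Nras* (0.985 [0.859]). *Wnt10a* was most like *Poldip3* (0.985 [0.977]), *Nom1* (0.975 [0.960]) and *Lypla2* (0.971 [0.969]).

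Calls in the other cell type lists are given beside 24.9% of all genes lower and 20.9% higher. Skeletal muscle markers were lower in 6 of 6 genes, with *Acta1* the most abundant per length, and summed to 3156 to 4094 CPM in the controls and 513 to 683 CPM in the *Supt6*-KO mice. Adipocyte markers were lower in 4 of 5 genes, but their sums overlapped, at 311 ± 71.3 CPM (SD, n = 5) and 317 ± 61.7 CPM (SD, n = 4), with *Fabp4*, the most abundant per length and not called, at 206 and 284 CPM. Endothelial markers were lower in 3 of 5 genes and T cell markers in 2 of 4. Macrophage markers were higher in 4 of 6 genes (*Cd68*, *Mrc1*, *C1qa* and *C1qb*) and lower in 1 (*Csf1r*), and with library totals 1 was higher and 1 lower (background 8.95% and 41.4%). Cartilage markers were lower in 6 of the 6 tested, and of 4 trunk Hox genes tested 2 were lower, *Hoxd8* (log2 fold change -1.02) and *Hoxd9* (-1.39). The part of these cells in the ligand levels was not tested.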
